A study of Mus musculus with 14 samples.

Results

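The nuclear-encoded genes of the mitochondrial respiratory chain and ATP synthase were examined in mouse liver under stress of the endoplasmic reticulum (ER), with and without the kinase PERK. They were taken as the genes whose platform symbol begins with Ndufa, Ndufb, Ndufc, Ndufs, Ndufv, Uqcr, Cox4 to Cox8 or Atp5, or is Sdha, Sdhb, Sdhc, Sdhd or Cyc1, and each gene was read from its brightest probe set over the 14 arrays. This gave 91 genes of the 18194 with a probe set of a single gene, and 87 of them passed the filter on dim probe sets, among 12085 genes tested. By complex, 33 of 34 genes were tested for complex I, 4 of 4 for complex II, 9 of 9 for complex III, 16 of 19 for complex IV and 17 of 17 for complex V. The remaining 8 were complex I assembly factors, whose symbols begin with Ndufaf and which are not subunits. Ndufa4, Ndufa4l2 and Cox7a2l were counted with complex IV, the assignment in current use. Cox4i2, Cox7b2, Cox8b and Ndufb4 did not pass the filter, with no group mean above 4.74 on the log2 scale.

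The groups were livers of lsPERK mice 6 h after 1 mg/kg tunicamycin (4 arrays), livers of wild-type (WT) mice given the same dose and time (4 arrays), livers of lsPERK mice given 0.3% DMSO (3 arrays) and livers of WT mice given 0.3% DMSO (3 arrays). Tunicamycin blocks N-linked glycosylation and so burdens protein folding in the ER, and PERK, encoded by Eif2ak3, is the ER kinase that phosphorylates eIF2 under such stress. The design text calls lsPERK the knock-out. The labels do not give the promoter that drives any deletion, the age or sex of the animals, a time of collection for the DMSO groups, or whether the replicates are separate animals. Xist, the RNA that silences an X chromosome in females, exceeded an intensity of 1000 on 2 of 4 arrays of lsPERK tunicamycin, 1 of 4 of WT tunicamycin, 2 of 3 of lsPERK control and 1 of 3 of WT control liver. Each group thus held arrays of both kinds and cannot be repeats of 1 animal, but whether every array is a separate animal is not known. The p-values describe only the spread between these samples, part of which may be technical. Eif2ak3 itself had log2 levels of 7.90 to 8.30 in lsPERK tunicamycin, 10.75 to 11.24 in WT tunicamycin liver, 6.98 to 7.30 in lsPERK control and 7.91 to 8.79 in WT control liver. The lsPERK minus WT difference was -2.75 ± 0.18 under tunicamycin (limma, adjusted p = 1.47e-07) and -1.27 ± 0.21 in control liver, where it was not called (limma, adjusted p = 0.309), although the arrays did not overlap. Ddit3, a PERK target that encodes CHOP, rose by 2.45 in lsPERK and 6.12 in WT liver, and Hspa5, the ER chaperone BiP, by 1.02 in lsPERK and 1.26 in WT liver. Atf4 had a response of 0.07 in lsPERK and 1.86 in WT liver. The median deposited intensity of an array lay between 34.6 and 53.5. Every array is bulk liver, in which fewer cells of a type and less RNA per cell cannot be told apart.

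Oxidative phosphorylation passes electrons from NADH (complex I) and succinate (complex II) through ubiquinone, complex III and cytochrome c to oxygen at complex IV, and the proton gradient so formed drives ATP synthase (complex V). Most subunits are encoded in the nucleus and a small core in mitochondrial DNA, except in complex II, which is wholly nuclear. The chain is a main consumer of electrons from fatty acid oxidation in hepatocytes. Its nuclear genes are known targets of the factors NRF1, GABP (an ETS factor), YY1 and the estrogen-related receptors, with which the coactivators PGC-1α and PGC-1β work.

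Promoters are shown for the gene of each complex with the smallest p in the comparison of responses described below, as the genes on which that comparison rests most. The windows come from RefSeq (GRCm38.p6), run 5′ to 3′ in the direction of the gene and cover 250 bases before the start and 30 after it. Capitals mark a match to 1 of 6 motifs searched on both strands: NRF1 (its palindromic element), ETS (CCGGAAG, read as CTTCCGG on the other strand), YY1 (AAGATGGC), the estrogen-related receptor element (TCAAGGTCA), the cAMP response element (TGACGTCA) and the element bound by ATF4 with C/EBP (TGATGNAA).
Ndufb3 (chr1:58586147-58586426, plus strand): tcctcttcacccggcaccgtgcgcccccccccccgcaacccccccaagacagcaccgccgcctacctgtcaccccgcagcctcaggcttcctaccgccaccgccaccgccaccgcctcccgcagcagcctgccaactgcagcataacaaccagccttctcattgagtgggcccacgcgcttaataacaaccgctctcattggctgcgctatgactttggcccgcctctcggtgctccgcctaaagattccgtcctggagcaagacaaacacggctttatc
Sdhd (chr9:50603820-50604099, minus strand): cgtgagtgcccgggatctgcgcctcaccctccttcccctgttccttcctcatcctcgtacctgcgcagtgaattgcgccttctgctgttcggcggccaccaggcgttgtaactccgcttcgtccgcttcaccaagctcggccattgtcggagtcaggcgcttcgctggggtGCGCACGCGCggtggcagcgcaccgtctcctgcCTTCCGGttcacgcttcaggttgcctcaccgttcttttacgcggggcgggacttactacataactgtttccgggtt
Uqcrh (chr4:116075041-116075320, minus strand): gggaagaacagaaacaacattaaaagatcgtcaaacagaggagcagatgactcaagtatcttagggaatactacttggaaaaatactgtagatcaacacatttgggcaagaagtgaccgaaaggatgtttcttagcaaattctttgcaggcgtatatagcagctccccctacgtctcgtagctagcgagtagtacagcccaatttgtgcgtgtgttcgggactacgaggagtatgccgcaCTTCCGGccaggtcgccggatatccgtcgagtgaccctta
Cox7a2l (chr17:83514304-83514583, minus strand): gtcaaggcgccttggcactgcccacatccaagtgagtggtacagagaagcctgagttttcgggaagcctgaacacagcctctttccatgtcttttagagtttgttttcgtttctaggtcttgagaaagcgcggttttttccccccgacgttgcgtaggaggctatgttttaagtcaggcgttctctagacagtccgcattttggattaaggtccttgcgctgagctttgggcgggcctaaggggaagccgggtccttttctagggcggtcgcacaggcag
Atp5md (chr19:47090618-47090897, minus strand): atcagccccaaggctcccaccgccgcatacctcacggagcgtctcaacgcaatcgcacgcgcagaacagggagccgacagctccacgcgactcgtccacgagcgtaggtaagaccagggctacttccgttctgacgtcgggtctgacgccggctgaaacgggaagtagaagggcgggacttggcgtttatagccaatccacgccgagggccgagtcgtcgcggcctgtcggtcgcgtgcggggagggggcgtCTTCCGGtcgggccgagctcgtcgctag
The Sdhd window held 1 NRF1 and 1 ETS match, and the Uqcrh and Atp5md windows held 1 ETS match each, close to the start. The Ndufb3 and Cox7a2l windows held none of the 6 letter strings. Of the 71 tested respiratory genes with a window, 15 (21.1%) held an NRF1 match, 19 (26.8%) an ETS match and 5 (7.04%) a YY1 match. Among the windows of all genes tested the shares were 10.8%, 18.5% and 3.97%, over 9775 genes with a window. The pooled shares did not hold for each complex. In complex I, 3 of 30 windows held an NRF1 match and 4 of 30 an ETS match, both below the share of all genes tested. NRF1 and ETS matches were found in 2 and 2 of 3 windows in complex II and 1 and 2 of 5 in III. They were found in 1 and 3 of 11 windows in complex IV and 6 and 6 of 15 in V. The differences between complexes were not tested. The ATF4 with C/EBP element was found in 0 of the 71 respiratory windows, against 2.75% of the windows of all genes tested. A match describes the letters only, and a missing match says nothing of binding elsewhere.

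In WT liver the respiratory genes were lower after tunicamycin as a group. Of 87 genes, 60 were called lower and 2 higher in WT tunicamycin against WT control liver (limma, adjusted p under 0.05). Over all genes tested 26% were called lower and 20.7% higher, and among the 3022 brightest genes (mean level of 9.99 or more on the log2 scale), which hold 76 of the 87, 38.2% were called lower and 26.1% higher. The median log2 difference was -0.33 over the respiratory genes, -0.13 over all genes and -0.16 over the brightest genes. In 64 of 87 genes all 4 WT tunicamycin arrays lay below all 3 WT control arrays. This was the case for 26.6% of all genes and 38.3% of the brightest genes.

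In lsPERK liver the same treatment left the group close to its control level. Only 3 of 87 genes were called lower in lsPERK tunicamycin against lsPERK control liver (limma), Cox7a2l, Ndufa9 and Ndufv1, and 0 were called higher, with 7 genes at an unadjusted p under 0.05. The background there was 7.27% lower and 8.42% higher over all genes. The median log2 difference over the respiratory genes was -0.02, equal at this precision to that of all genes.

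The difference between both responses, lsPERK minus WT, was tested directly for each gene. It was called in 38 of 87 genes, higher in 37 and lower only in Cox7a2l, against 10.2% higher and 9.67% lower over all genes and 18.8% and 12.9% among the brightest genes. In 35 genes the calls formed 1 pattern. They were lower with tunicamycin in WT, without a call in lsPERK, and higher in lsPERK than in WT under tunicamycin. In the difference of responses they were also called higher. The share of all genes with this pattern was not counted, and the comparisons in it are linked by their shared groups. Under tunicamycin itself, 55 genes were called higher and 2 lower (Cox7a2l and Cox6a2) in lsPERK against WT liver. The shares were 18.5% and 16.8% over all genes and 31.1% and 19.2% among the brightest genes. With lsPERK control replicate 2 left out 20 genes, and with WT control replicate 2 left out 25 genes, were called in the difference of responses. With high or low Xist as a covariate, 66 respiratory genes were called for WT, 3 for lsPERK liver and 42 in the difference of responses. The shares of all genes with that covariate were 51.5%, 19.7% and 24.1%. These comparisons share their arrays and are not independent of one another. Without tunicamycin, 0 of 87 genes and 0% of all genes were called between lsPERK control and WT control liver (limma). At an unadjusted p under 0.05, 2 of the 87 genes differed there.

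The size of the WT response depended on the scaling of the arrays. On the deposited scale the median of all genes was 0.30 higher in WT tunicamycin than in WT control liver, and the median of the respiratory genes was -0.066. With quantile normalization, used throughout unless stated, they were -0.13 and -0.33. Relative to all genes, the respiratory genes thus lay 0.37 lower on the deposited scale and 0.20 lower after quantile normalization. The calls moved with it. On the deposited scale 5 genes (Sdhd, Atp5md, Atp5k, Ndufa13 and Uqcr11) were called lower and 3 (Cox6a2, Cox7a2l and Ndufaf4) higher in WT liver. In the difference of responses 0 were called higher and 2 (Cox7a2l and Cox6a2) lower. Of all genes, 35.6% were called in the WT response and 15.6% in the difference of responses on that scale, in either direction. The median of the difference of responses was 0.048 over the respiratory genes and -0.42 over all genes on that scale, against 0.33 and 0.084 after quantile normalization. A variance model without a trend gave 23 called genes in the difference of responses, against 18.1% of all genes. Median centring of the arrays gave 44 called genes for the WT response and 16 for the difference of responses. The shares of all genes were 41.1% and 15.3% there.

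**Figure D1:**
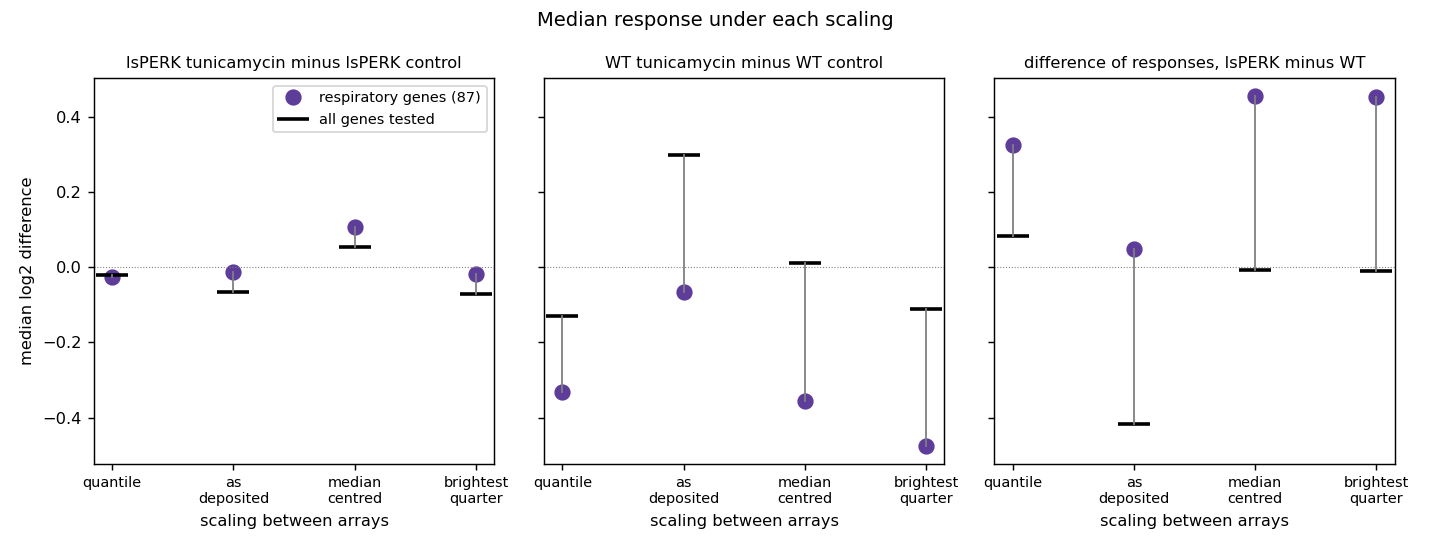
Median log2 difference (y axis) of the 87 respiratory genes (circles) and of all genes tested (bars) under 4 scalings between arrays (x axis), for the lsPERK response, the WT response and their difference. In the WT response the circle lies below the bar under all 4 scalings, by 0.20 to 0.37, and in the difference of responses above it, by 0.24 to 0.46.

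The levels were also read array by array. The mean normalized level of the 73 liver-expressed subunits was 12.61 to 12.62 in lsPERK tunicamycin, 12.19 to 12.40 in WT tunicamycin liver, 12.58 to 12.68 in lsPERK control and 12.65 to 12.70 in WT control liver. The 4 WT tunicamycin arrays lay below the other 10. The distance of these subunits above the median gene of the array, taken from the deposited values, was 4.22 to 4.36 in lsPERK tunicamycin, 3.51 to 4.03 in WT tunicamycin liver, 4.09 to 4.31 in lsPERK control and 4.27 to 4.49 in WT control liver. The WT tunicamycin arrays were again the lowest, without overlap. The deposited level of the subunits itself did overlap, at 12.49 to 12.73, 12.26 to 12.57, 12.48 to 12.77 and 12.43 to 12.67 in the same groups. Of the mean WT change of -0.60 in the distance, -0.10 came from the subunits, and the median gene was 0.50 higher in WT tunicamycin than in WT control liver.

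**Figure D2:**
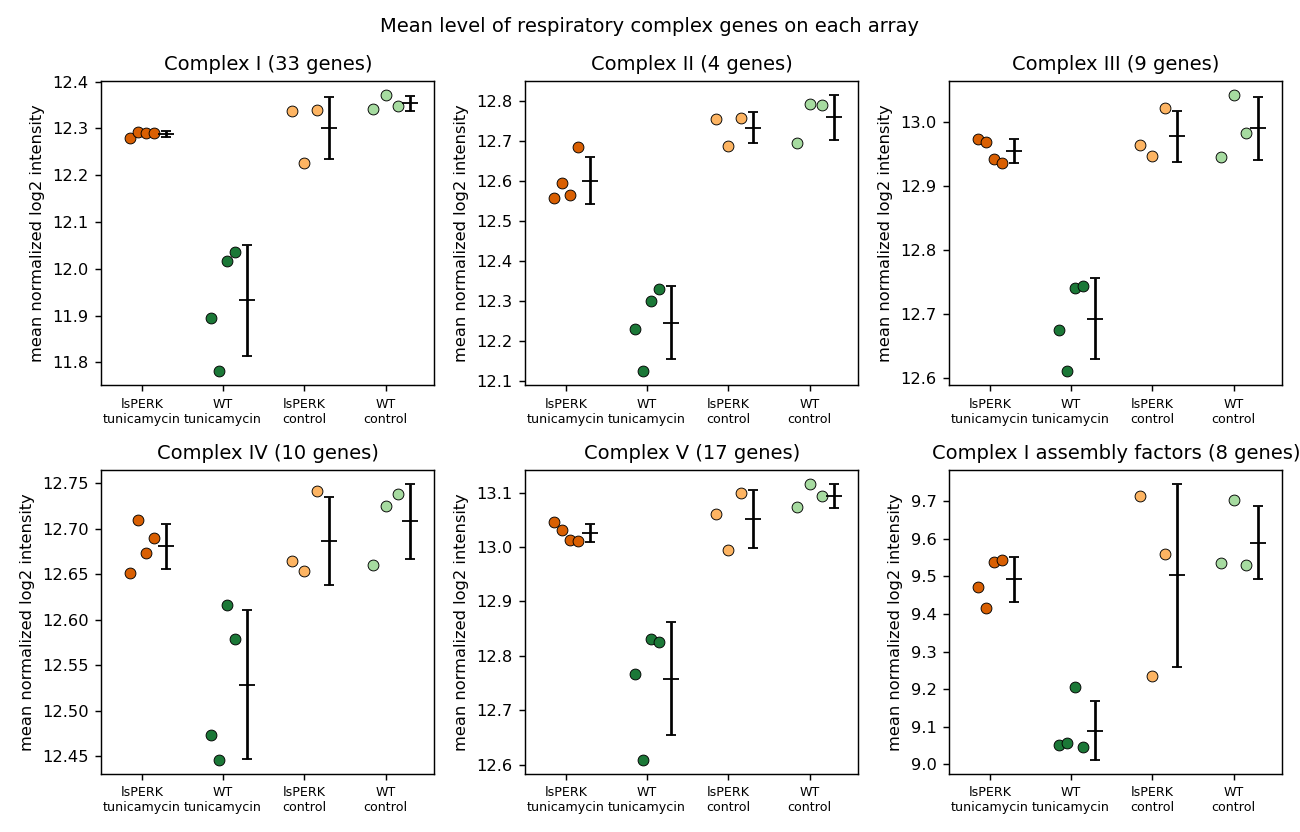
Mean normalized log2 intensity of the genes of each complex (y axis) on each array, by group (x axis), with tissue-restricted isoforms and Cox7a2l left out. Points are arrays and the bar beside them is the mean and SD, and the 4 WT tunicamycin arrays lie lowest in each panel.

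Complex I, the NADH dehydrogenase, had the most called genes and also the most genes tested. Its share called lower in WT liver was 78.8%, against 100% in complex II, 66.7% in III, 31.25% in IV and 76.5% in V. Among the 10 liver subunits of complex IV it was 50%. Over all genes this share was 26%, and among the brightest genes 38.2%. In WT liver 26 of 33 genes were called lower with tunicamycin, with a median log2 difference of -0.45, and 18 were called higher in the difference of responses, with a median of 0.40. Both arms took part: 11 of 14 genes of the matrix arm, which holds the flavin and iron-sulfur centres, and 15 of 18 genes of the membrane arm were called lower, with medians of -0.49 and -0.47. The mean level of the complex I genes was 12.29 ± 0.01 in lsPERK tunicamycin, 11.93 ± 0.12 in WT tunicamycin liver, 12.30 ± 0.07 in lsPERK control and 12.35 ± 0.02 in WT control liver (SD, n = 4, 4, 3 and 3).

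Ndufb3, an accessory subunit of the membrane arm (probe set 1416547_at), differed most between the responses in complex I. Its log2 intensity was 11.78, 11.90, 12.03 and 12.01 in lsPERK tunicamycin, 11.06, 10.89, 11.24 and 11.25 in WT tunicamycin liver, 11.78, 11.61 and 11.73 in lsPERK control, and 11.75, 11.84 and 11.89 in WT control liver. The WT tunicamycin arrays lay below all others, and the lsPERK tunicamycin arrays lay at or above their controls. The log2 difference was -0.71 ± 0.10 (SE) in WT (limma, adjusted p = 4.93e-05) and 0.22 ± 0.10 in lsPERK liver (adjusted p = 0.154), and the difference of responses was 0.94 ± 0.14 (adjusted p = 0.000574).

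Ndufs1, which carries iron-sulfur centres of the matrix arm, had values of 11.69, 11.81, 11.63 and 11.74 in lsPERK tunicamycin, 11.27, 11.19, 11.27 and 11.21 in WT tunicamycin liver, 11.75, 11.70 and 11.88 in lsPERK control, and 11.68, 11.85 and 11.80 in WT control liver. Those of WT tunicamycin stood alone, and the other 3 groups overlapped. Its WT response was -0.54 ± 0.08 and the difference of responses was 0.48 ± 0.11 (limma, adjusted p = 4.86e-05 and 0.00623). Other genes with low p in WT liver were Ndufa9 (-0.67), Ndufb7 (-0.64) and Ndufa5 (-0.72), all accessory subunits.

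Ndufa9 and Ndufv1 were the complex I genes called lower in both genotypes. Ndufv1, the flavin-bearing subunit that accepts electrons from NADH, had values of 12.09, 12.15, 12.00 and 12.02 in lsPERK tunicamycin, 11.71, 11.66, 11.77 and 11.78 in WT tunicamycin liver, 12.39, 12.28 and 12.20 in lsPERK control, and 12.14, 12.21 and 12.15 in WT control liver. Both tunicamycin groups lay below their own controls without overlap. The log2 difference was -0.23 ± 0.07 in lsPERK and -0.44 ± 0.07 in WT liver, and the difference of responses was 0.21 ± 0.10 (limma, adjusted p = 0.162). For Ndufa9 the lsPERK response was -0.33 ± 0.07 and the difference of responses 0.34 ± 0.11 (limma, adjusted p = 0.0358). Ndufa8, a membrane arm subunit, was called in neither genotype (0.26 in lsPERK, -0.21 in WT) but in the difference of responses (0.47 ± 0.13, limma, adjusted p = 0.0204). Ndufb1, at a mean level of 7.67 far below the other subunits of its complex, was not called in any comparison.

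Complex I assembly factors were mostly lower with tunicamycin in WT liver after quantile normalization, as the subunits were. Of 8 Ndufaf genes, 6 were called lower with tunicamycin in WT liver, with a median over the 8 of -0.56, and 0 were called in lsPERK liver. In the difference of responses 2 were called higher, against 18 of 33 complex I subunits. Without rescaling the mean over the 8 was 0.018 higher in WT tunicamycin than in WT control liver, so the direction of their mean turned with the scaling. That of the complex I subunits changed by -0.11 without rescaling. Ndufaf5, a factor related to methyltransferases, had values of 7.33, 7.36, 7.76 and 7.49 in lsPERK tunicamycin, 6.85, 6.61, 6.83 and 6.72 in WT tunicamycin liver, 7.84, 7.10 and 7.44 in lsPERK control, and 7.34, 7.66 and 7.77 in WT control liver. Those of WT tunicamycin were the lowest without overlap. The WT response was -0.83 ± 0.18 and the difference of responses 0.86 ± 0.26 (limma, adjusted p = 0.00172 and 0.0302). Ndufaf4 was not called in WT liver after quantile normalization (0.30 ± 0.17, limma, adjusted p = 0.15).

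Complex II, succinate dehydrogenase, also belongs to the citric acid cycle. All 4 genes were called lower with tunicamycin in WT liver, 0 in lsPERK liver. The membrane anchors Sdhd and Sdhc had log2 differences of -0.91 ± 0.10 and -0.60 ± 0.07, and the flavoprotein Sdha and the iron-sulfur protein Sdhb -0.34 ± 0.09 and -0.21 ± 0.07. The difference of responses was called for Sdhd (0.72 ± 0.14, limma, adjusted p = 0.00256) and Sdhc (0.49 ± 0.10, limma, adjusted p = 0.00418), and not for Sdha (0.22 ± 0.12, adjusted p = 0.226) or Sdhb (0.08 ± 0.10, adjusted p = 0.635). The difference between anchors and catalytic subunits was not itself tested.

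Sdhd (probe set 1428235_at) had the largest called fall of all 87 genes in WT liver. Its values were 12.16, 12.29, 11.92 and 12.21 in lsPERK tunicamycin, 11.44, 11.42, 11.54 and 11.65 in WT tunicamycin liver, 12.49, 12.24 and 12.26 in lsPERK control, and 12.44, 12.42 and 12.42 in WT control liver. The WT tunicamycin arrays were separate from all others, and lsPERK tunicamycin and lsPERK control arrays overlapped. The second kept probe set of Sdhd gave -0.68 in WT liver and 0.32 in the difference of responses, the second not called. Sdhb had values of 13.12, 12.96, 13.09 and 13.10 in lsPERK tunicamycin, 12.96, 12.88, 13.13 and 13.06 in WT tunicamycin liver, 13.14, 13.14 and 13.30 in lsPERK control, and 13.14, 13.27 and 13.24 in WT control liver, with both tunicamycin groups in 1 range.

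Complex III, the cytochrome bc1 complex, was called lower in 4 of 5 small subunits and both redox subunits, and in neither core protein. Of 9 genes 6 were called lower in WT liver and 0 in lsPERK liver, with a WT median of -0.24. The small hinge subunit Uqcrh (-0.57) and the small subunits Uqcr11 (-0.54) and Uqcr10 (-0.38) were called lower in WT. All were called higher in the difference of responses. For Uqcr10 this rests on its brightest probe set. Its other kept probe sets gave -0.17 and -0.23 in WT and 0.04 and 0.17 in the difference of responses, none called. The redox subunits Uqcrfs1, the Rieske protein, and Cyc1, cytochrome c1, were called lower in WT (-0.28 ± 0.08 and -0.24 ± 0.08). The core proteins Uqcrc1 and Uqcrc2 had values of -0.15 ± 0.08 and -0.18 ± 0.07 and were not called (limma, adjusted p = 0.147 and 0.0585).

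Uqcrh (probe set 1453229_s_at) had values of 12.86, 12.93, 12.74 and 12.85 in lsPERK tunicamycin, 12.08, 12.31, 12.21 and 12.26 in WT tunicamycin liver, 12.79, 12.89 and 12.83 in lsPERK control, and 12.82, 12.85 and 12.69 in WT control liver. Those of WT tunicamycin were apart from the rest, and the lsPERK tunicamycin arrays overlapped both controls. The difference of responses was 0.58 ± 0.10 (limma, adjusted p = 0.00176).

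**Figure D3:**
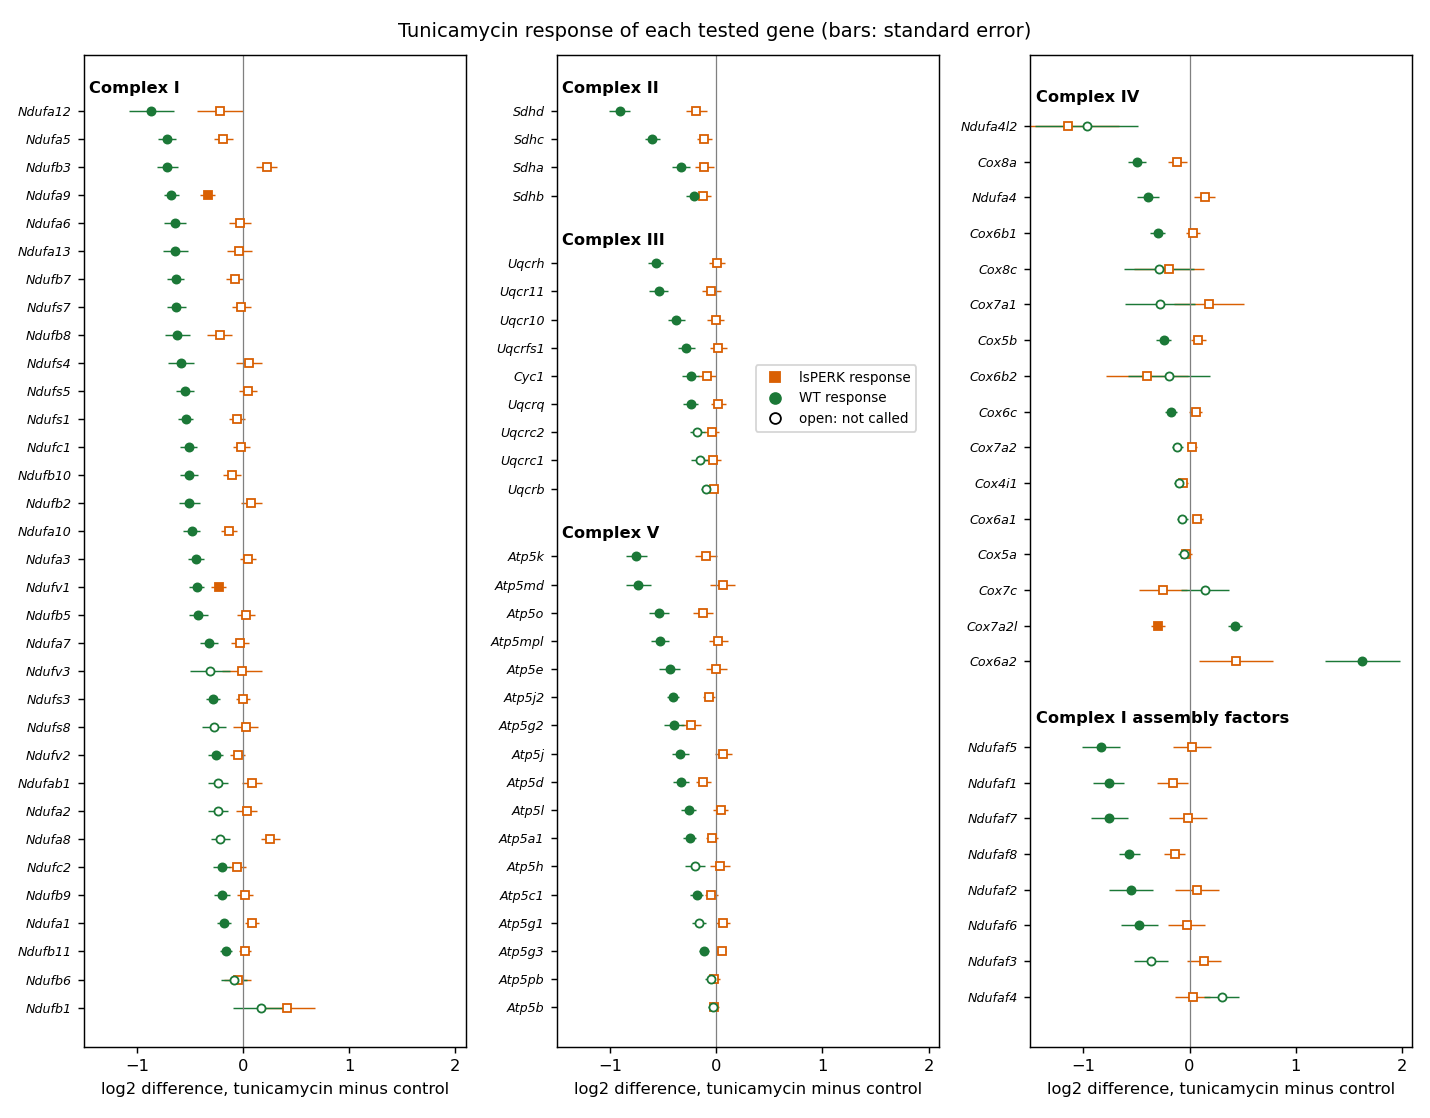
Log2 difference between tunicamycin and control (x axis) for each of the 87 tested genes (y axis), by complex, in lsPERK liver (squares) and WT liver (circles); bars are standard errors and filled symbols are called at adjusted p under 0.05. In WT liver 60 filled circles lie left of 0 and 2 (Cox7a2l and Cox6a2) right of it, and in lsPERK liver 3 squares are filled.

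Complex IV, cytochrome c oxidase, had 5 of 16 genes called lower in WT liver. That share lay between those of all genes (26%) and of the brightest genes (38.2%). The 16 include Cox7a2l and 5 tissue-restricted isoforms at a mean level of 5.94. Of 10 subunits of the liver form, 5 (50%) were called lower in WT liver (Cox8a, Ndufa4, Cox6b1, Cox5b and Cox6c) and 0 in lsPERK liver. Their WT median was -0.14, against -0.13 over all genes and -0.16 over the brightest genes. Cox4i1, the subunit through which nucleotides act on the enzyme, had a WT response of -0.10 ± 0.05 (limma, adjusted p = 0.136), and Cox5a and Cox6a1 had -0.06 ± 0.06 and -0.07 ± 0.05. Cox8a had values of 11.96, 12.04, 12.04 and 11.96 in lsPERK tunicamycin, 11.65, 11.50, 11.64 and 11.80 in WT tunicamycin liver, 11.99, 12.07 and 12.28 in lsPERK control, and 12.09, 12.12 and 12.22 in WT control liver. Its WT tunicamycin arrays were lowest without overlap, and the difference of responses was 0.38 ± 0.12 (limma, adjusted p = 0.0437). Cox7c was read at a mean level of 6.36, far below the other liver subunits, and was not called. The 10-gene mean was 0.18 lower in WT tunicamycin than in WT control liver, and 0.0089 higher without rescaling. The sign without rescaling rests on Cox7c, whose WT difference there was 0.53, the largest of the 10.

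The complexes were also set against complex IV within each array, where a scaling factor shared by all genes of an array cancels. The mean of complex II minus that of complex IV was -0.11 to -0.00 in lsPERK tunicamycin, -0.32 to -0.24 in WT tunicamycin liver, 0.02 to 0.09 in lsPERK control and 0.03 to 0.07 in WT control liver. Both tunicamycin groups lay below their controls, WT further than lsPERK. From the deposited values it was -0.09 to -0.01, -0.32 to -0.15, -0.02 to 0.11 and -0.03 to 0.07 in the same groups, where the lsPERK groups overlapped by little and WT tunicamycin lay below WT control. Complex I minus complex IV was -0.42 to -0.37 in lsPERK tunicamycin, -0.67 to -0.54 in WT tunicamycin liver, -0.43 to -0.33 in lsPERK control and -0.39 to -0.32 in WT control liver. From the deposited values the WT groups met, at -0.60 to -0.46 with tunicamycin and -0.48 to -0.36 in control liver. The complex IV mean includes the dim Cox7c, at 0.53 in WT and -0.38 in lsPERK liver on the deposited scale. Cox7c thus widens the gap between the genotypes in both ratios. These ratios were not tested.

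Cox7a2l moved against most genes of the respiratory chain. It encodes a factor that joins complexes III and IV into supercomplexes. Its values (probe set 1432264_x_at) were 11.42, 11.61, 11.54 and 11.61 in lsPERK tunicamycin, 12.15, 12.18, 12.19 and 12.21 in WT tunicamycin liver, 11.82, 11.87 and 11.83 in lsPERK control, and 11.68, 11.78 and 11.80 in WT control liver. WT tunicamycin arrays were the highest and lsPERK tunicamycin arrays the lowest, both without overlap with any control array.

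The log2 difference of Cox7a2l was 0.43 ± 0.07 in WT liver, a 1.35-fold rise (limma, adjusted p = 0.000131), and -0.29 ± 0.07 in lsPERK liver (adjusted p = 0.00875). The difference of responses was -0.73 ± 0.09 (limma, adjusted p = 0.000238). Its 3 probe sets gave 0.43, 0.16 and 0.12 in WT liver, of which only the first, the brightest, was called, and -0.29, -0.45 and -0.37 in lsPERK liver, all called. In the difference of responses they gave -0.73, -0.61 and -0.50, all called. Without rescaling the WT rise was 0.77 ± 0.15 and called, and the lsPERK value was -0.30 ± 0.15 and not called (limma, adjusted p = 0.314).

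Cox6a2, the heart and muscle isoform of subunit 6a (probe set 1417607_at), was the other gene called higher in WT liver. Its values were 6.30, 5.86, 5.94 and 4.70 in lsPERK tunicamycin, 7.10, 6.73, 7.41 and 7.02 in WT tunicamycin liver, 5.20, 4.95 and 5.65 in lsPERK control, and 5.04, 5.92 and 5.36 in WT control liver. All 4 WT tunicamycin arrays exceeded all others. The log2 difference was 1.63 ± 0.35 in WT (limma, adjusted p = 0.00167) and 0.44 ± 0.35 in lsPERK liver. The mean was 5.27 in lsPERK control and 5.44 in WT control liver, below and barely above the filter threshold of 5.37, so the size of both differences is uncertain and no fold is given. The difference of responses was not called (-1.19 ± 0.50, limma, adjusted p = 0.114). Its liver partner Cox6a1 stood at a mean level of 13.8.

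Few other muscle markers passed the filter. Of 8 markers of skeletal muscle, Cox6a2, Cox7a1 and Acta1 passed the filter, and Cox6a2 alone was called. Acta1 ran from 2.29 to 4.86 in lsPERK tunicamycin, 2.60 to 9.0 in WT tunicamycin liver, 1.84 to 5.59 in lsPERK control and 2.26 to 5.55 in WT control liver. Ckm, Myh4, Tnnt3, Mb and Cox8b did not pass the filter, with no array above 5.86. The log2 of the summed intensities was taken over the 3 that passed. It was 6.91 to 7.33, 7.75 to 9.48, 6.29 to 7.32 and 6.67 to 7.72 in the same groups. This sum includes Cox6a2 itself and is not separate from its result. The part of muscle RNA in the Cox6a2 result was not tested. The other tissue-restricted isoforms (Cox6b2, Cox7a1, Cox8c and Ndufa4l2) were read at low levels and were not called in any comparison.

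**Figure D4:**
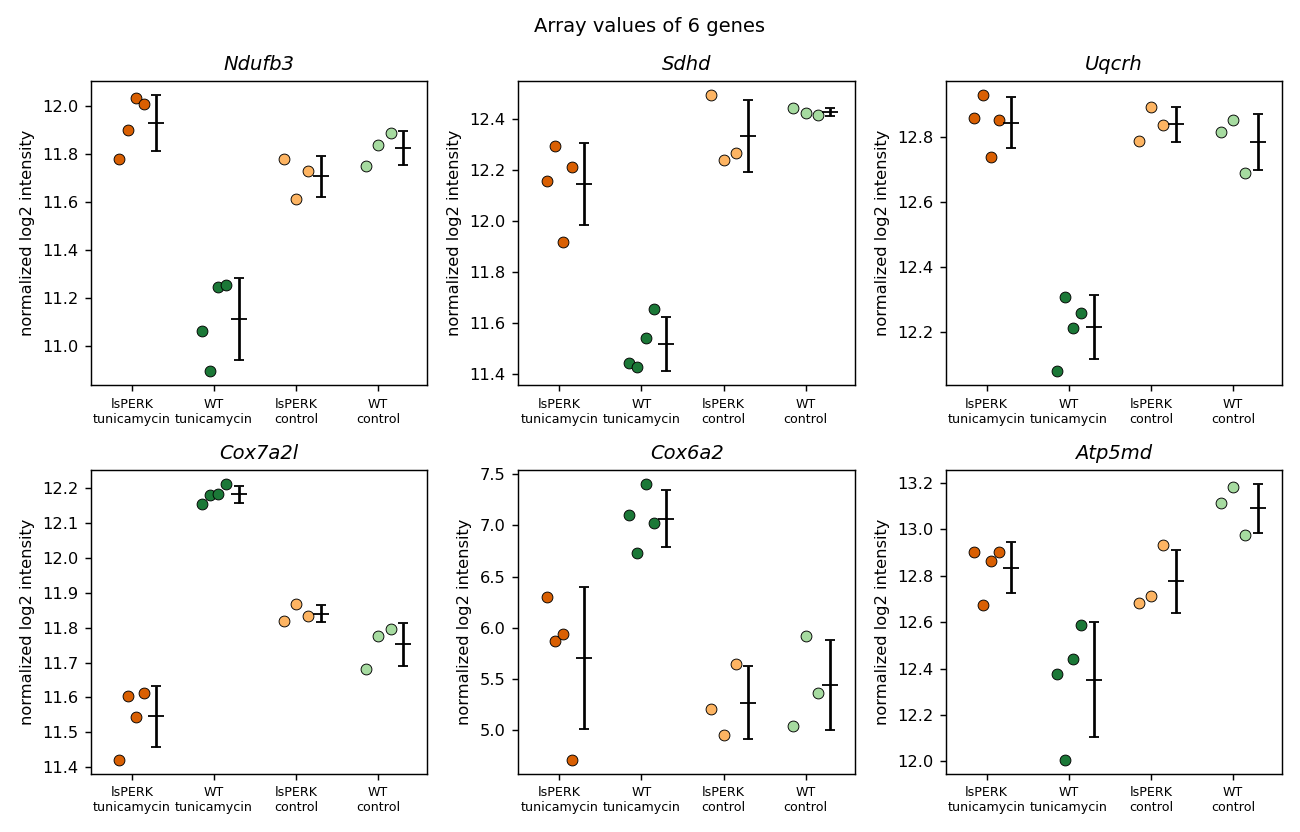
Normalized log2 intensity (y axis) of Ndufb3, Sdhd, Uqcrh, Cox7a2l, Cox6a2 and Atp5md on each array, by group (x axis), with the mean and SD beside the points. WT tunicamycin arrays lie lowest for Ndufb3, Sdhd, Uqcrh and Atp5md and highest for Cox7a2l and Cox6a2.

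Complex V, ATP synthase, had its lowest median response in the small membrane subunits, at -0.53. Of 17 genes 13 were called lower in WT liver and 0 in lsPERK liver, with a WT median of -0.33, and 8 were called higher in the difference of responses. All 5 small subunits of the membrane part were called lower in WT: Atp5k (-0.75), Atp5md (-0.74), Atp5mpl (-0.53), Atp5j2 (-0.40) and Atp5l (-0.26). The same 5 were called higher in the difference of responses, by 0.30 to 0.80. Several of these subunits join ATP synthase into dimers.

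Atp5md (probe set 1448179_at) had values of 12.90, 12.67, 12.86 and 12.90 in lsPERK tunicamycin, 12.38, 12.01, 12.44 and 12.59 in WT tunicamycin liver, 12.68, 12.71 and 12.93 in lsPERK control, and 13.11, 13.18 and 12.97 in WT control liver. The WT tunicamycin arrays were the lowest, and lsPERK tunicamycin overlapped lsPERK control. The WT control arrays lay above those of lsPERK control, by 0.31 on the log2 scale, with an adjusted p of 0.99 (limma). The difference of responses was 0.80 ± 0.17 (limma, adjusted p = 0.0049), part of which is that gap between the controls.

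In the catalytic head 4 of 5 genes were called lower in WT liver. The exception was Atp5b, which encodes the catalytic β subunit and had values of 13.75, 13.71, 13.71 and 13.67 in lsPERK tunicamycin, 13.69, 13.69, 13.64 and 13.61 in WT tunicamycin liver, 13.80, 13.74 and 13.66 in lsPERK control, and 13.68, 13.70 and 13.69 in WT control liver. All 4 groups overlapped, and the WT response was -0.03 ± 0.05 with a 95% interval of -0.13 to 0.07. Atp5a1, the α subunit, was called lower in WT at -0.25 ± 0.06 (limma, adjusted p = 0.00332). Of the 3 genes for the identical mature c subunit, Atp5g2 (-0.40 ± 0.09) and Atp5g3 (-0.12 ± 0.04) were called lower in WT and Atp5g1 (-0.16 ± 0.07) was not. Atp5o, which ties the head to the stalk, was lower in WT by -0.54 ± 0.09 on the log2 scale.

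The WT response varied with the level of a gene. Among the 73 liver-expressed subunits, its median was -0.44 for 51 genes with a mean level under 13 and -0.18 for 22 genes at 13 and over. Across these genes Spearman's rho between level and WT response was 0.53 and Pearson's r 0.027, and the points share their arrays and are not independent. The highest deposited intensity of a respiratory gene was 22656, and that of any probe set was 27757. The part of signal compression at high intensity in the difference between complexes was not tested. The 1 mitochondrially encoded subunit found, ND5 of complex I, had group means of 14.36, 14.33, 14.31 and 14.34 in lsPERK tunicamycin, WT tunicamycin, lsPERK control and WT control liver, and was not called.

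Probe sets of 1 gene were compared where several were kept. Of 49 respiratory genes with more than 1 kept probe set, all had the same sign in the WT response in 41. In the other 8 (Atp5g2, Atp5j2, Cox5b, Ndufa12, Ndufab1, Ndufaf4, Sdha and Uqcrq) some probe set had the opposite sign, and 0 genes had a probe set called in the opposite direction. Some probe set had the opposite sign in 22 of the 49 genes for the lsPERK response, in 26 between the controls, in 12 between the tunicamycin groups and in 10 for the difference of responses, again with 0 called in opposite directions. Atp5h, Atp5pb, Cox5a, Ndufb6, Ndufs8 and Uqcrb, not called by their brightest probe set, had another probe set called in WT liver.

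Genes that build or feed the chain were read from lists outside the symbol rule. Of 37 further assembly factors tested, 15 were called lower and 1 higher (Ttc19) in WT liver, with a median of -0.25, and 9 were called higher and 0 lower in the difference of responses. The shares over all genes were 26% lower and 20.7% higher in WT and 10.2% higher in the difference of responses. In the WT response the lowest p-values belonged to Sdhaf4, an assembly factor of complex II (-1.40 ± 0.11 in WT), and to Coa6, which serves copper delivery to complex IV (-1.56 ± 0.14). Coa3, an early assembly factor of complex IV, was called in opposite directions, at 0.46 ± 0.08 in lsPERK and -0.39 ± 0.08 in WT liver (limma, adjusted p = 0.00147 and 0.00115), with a difference of responses of 0.85 ± 0.11. Uqcc3, an assembly factor of complex III, had -0.13 in lsPERK and -0.78 ± 0.09 in WT liver.

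Electron carriers and the dehydrogenases that feed ubiquinone showed 12 of 18 genes lower and 1 higher in WT liver, against 26% and 20.7% of all genes. In lsPERK liver 4 were lower and 2 higher, against 7.27% and 8.42%. Chdh, choline dehydrogenase, was lower in WT by -1.35 ± 0.13 on the log2 scale, with -0.02 ± 0.13 in lsPERK liver. Gpd2, the mitochondrial glycerol-3-phosphate dehydrogenase, rose in lsPERK liver (0.96 ± 0.13, limma, adjusted p = 0.000274) and had -0.33 ± 0.13 in WT liver (adjusted p = 0.0588). Pdss2, of ubiquinone side-chain synthesis, had -0.22 in lsPERK and -0.85 in WT liver, and Prodh, proline dehydrogenase, -0.99 in lsPERK and -0.24 in WT liver. Cycs, cytochrome c, rose in both, by 0.30 ± 0.09 in lsPERK and 0.43 ± 0.09 in WT liver. Coq8a, a kinase-like protein needed for ubiquinone synthesis, fell in both, at -1.90 ± 0.32 in lsPERK and -0.93 ± 0.32 in WT liver.

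Among 16 enzymes around the tricarboxylic acid cycle, 7 were called lower and 2 higher in WT liver. The shares among the brightest genes were 38.2% and 26.1%. In the difference of responses 6 were called higher and 1 lower, against 18.8% and 12.9% of the brightest genes. Dlat and Dlst, the acyltransferases of the pyruvate and oxoglutarate dehydrogenase complexes, had WT values of -0.86 ± 0.10 and -0.82 ± 0.11. Cs, citrate synthase, and Pdhb, of pyruvate dehydrogenase, rose in WT liver by 0.80 ± 0.18 and 0.89 ± 0.12, and Idh3b, of isocitrate dehydrogenase, had -0.47 ± 0.07. Of 16 mitochondrial proteases and inner membrane organisers, 10 were called lower and 4 higher in WT and 0 in lsPERK liver, against 26% and 20.7% of all genes in WT. Immt and Micos10 of the cristae-shaping MICOS complex were lower in WT (-0.61 ± 0.09 and -0.60 ± 0.09), as were Micos13 of the same complex (-0.63) and the inner membrane protease Oma1 (-0.69), and the matrix protease Lonp1 was higher (0.54 ± 0.16).

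Of 17 regulators of respiratory gene expression tested, 8 were called higher and 6 lower with tunicamycin in WT liver, against 20.7% and 26% of all genes and 26.1% and 38.2% of the brightest genes. Ppargc1a, which encodes PGC-1α, had mean levels of 7.93 in lsPERK tunicamycin, 5.34 in WT tunicamycin liver, 7.61 in lsPERK control and 7.62 in WT control liver. Its WT tunicamycin mean lay below the filter threshold of 5.37, so the WT difference of -2.28 ± 0.36 (limma, adjusted p = 0.000162) is uncertain in size, and the lsPERK response was 0.32 ± 0.36. The difference of responses for Ppargc1a was 2.60 ± 0.51 (limma, adjusted p = 0.00342). Ppargc1b, which encodes PGC-1β, fell in both genotypes, at -1.66 ± 0.31 in lsPERK and -2.63 ± 0.31 in WT liver, and its difference of responses was not called (0.97 ± 0.44, limma, adjusted p = 0.148).

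Ppara, a nuclear receptor that drives fatty acid oxidation genes, fell in WT (-1.97 ± 0.24) and was not called in lsPERK liver (-0.45 ± 0.24), with a difference of responses of 1.52 ± 0.34 (limma, adjusted p = 0.00733). Lrpprc, which stabilises mitochondrial mRNAs, was called in opposite directions, at 0.34 ± 0.10 in lsPERK and -0.57 ± 0.10 in WT liver. Tfam, which packages mitochondrial DNA, fell in WT by 0.63 on the log2 scale. The listed factors that bind the NRF1, ETS and YY1 motifs were called higher in WT liver. Nrf1 rose by 0.47 ± 0.15, Gabpa by 0.41 ± 0.12 and Yy1 by 0.70 ± 0.14, with 0.08, -0.10 and -0.10 in lsPERK liver. Atf4, outside this list but a factor of another motif shown above, rose by 1.86 in WT and had 0.07 in lsPERK liver. Esrra, an estrogen-related receptor, had -0.42 in lsPERK and -0.29 ± 0.17 in WT liver, where it was not called (limma, adjusted p = 0.179). Pprc1, a PGC-1-related coactivator, rose in both genotypes, by 0.84 ± 0.13 in lsPERK and 1.62 ± 0.13 in WT liver, and Tfb1m, a mitochondrial rRNA methyltransferase, rose in WT by 1.55 ± 0.17. These genes were read beside the respiratory genes, and no link between them was tested.

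**Figure D5:**
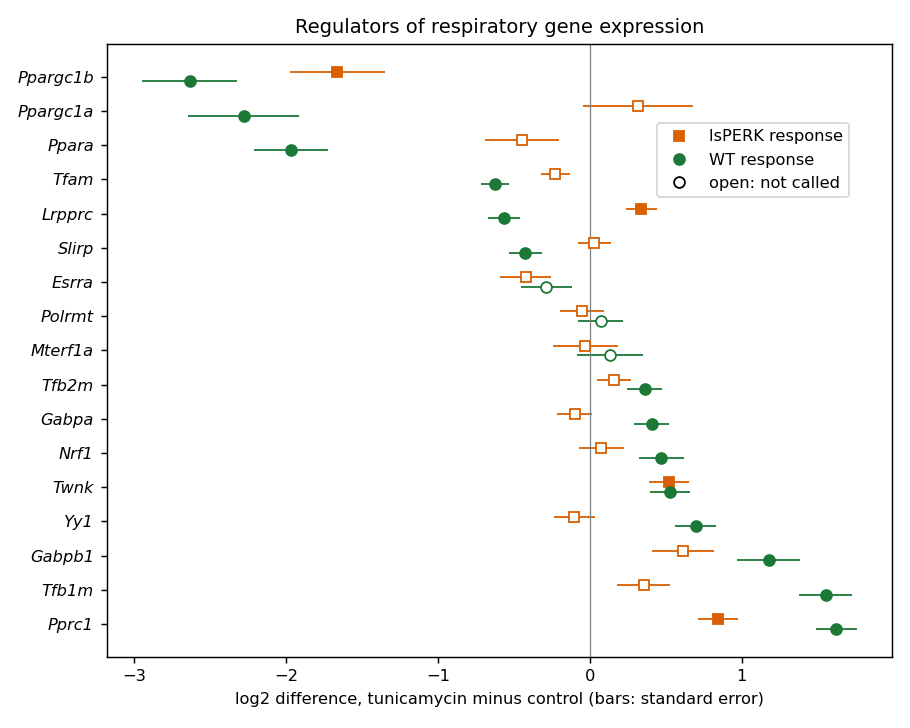
Log2 difference between tunicamycin and control (x axis) of 17 regulators of respiratory gene expression (y axis) in lsPERK liver (squares) and WT liver (circles), with standard errors as bars and filled symbols called at adjusted p under 0.05. Ppargc1b, Ppargc1a and Ppara lie farthest left in WT liver, and Tfb1m and Pprc1 farthest right.

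For 10 hepatocyte markers the log2 of the summed intensities was taken, in which the brightest markers weigh most. It was 17.36 to 17.41 in lsPERK tunicamycin and 17.37 to 17.41 in WT tunicamycin liver. In control liver it was 17.32 to 17.45 in lsPERK and 17.40 to 17.42 in WT. Of the 10, 1 was called in WT liver, lower. Markers of several other cell types had larger median differences than these. The medians were -0.56 in lsPERK and -0.70 in WT liver for 8 Kupffer cell markers, -0.19 and -0.37 for 7 stellate cell, -0.12 and -0.042 for 8 endothelial, -0.72 and -0.37 for 6 lymphocyte, and -1.42 and -0.71 for 3 neutrophil markers. In the same order, the medians were 1.44 and 0.56 for 3 cholangiocyte and 0.60 and -0.017 for 2 adipocyte markers. For 1 red cell precursor marker the values were 0.73 and 1.0. In WT liver 1 Kupffer cell, 2 endothelial and 2 stellate cell markers were called lower, near or below the 26% of all genes. In lsPERK liver 0 markers of these 3 types were called lower. The summed Kupffer cell level, taken the same way, was 12.76 to 13.38 in lsPERK tunicamycin and 12.09 to 13.66 in WT tunicamycin liver. In control liver it was 12.72 to 14.22 in lsPERK and 12.88 to 14.31 in WT, and the groups overlapped. The summed stellate cell level was 13.35 to 13.69, 12.95 to 13.45, 13.33 to 13.58 and 13.24 to 13.74 in the same groups, also with overlap. No marker of lymphocytes, neutrophils, red cell precursors or adipocytes was called in either response, and 1 of 3 of cholangiocytes was called higher in lsPERK liver. Their part in the results was not tested. The number of arrays limits the precision, as arrays have no read depth.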

How the data were processed

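Total RNA from 14 mouse liver samples was measured on 1 array each. The authors deposited 1 linear intensity per probe set and array for 45101 probe sets, made with MAS5 and GCOS per the submitters' processing notes. The settings used are not stated in the labels. Genes were named from the platform annotation. Intensities were taken to log2 and quantile normalized. Probe sets with 3 or more arrays above the pooled median (log2 5.37) were kept, and each of 12085 genes was read from its brightest kept probe set. The 64 control probe sets and probe sets with several genes were left out.

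The test was limma 3.58.1 (R 4.3.3, eBayes with a trend) on a model of 4 group means, with 10 residual degrees of freedom and 5 two-sided contrasts. Benjamini-Hochberg adjustment ran across the 12085 genes, and an adjusted p under 0.05 was a call. The procedure was tested on simulated data. Figures were drawn with matplotlib 3.10.9 in Python 3.11.15.

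The respiratory genes, the lists, the tests and the naming rule were chosen with earlier results of these data known. Named are up to 3 called genes per complex, contrast and direction by p, all genes called in the difference of responses, fixed subunits and isoforms, genes with a distant array or disagreeing probe sets, up to 4 genes per list, and 4 check genes. Genes named beyond this (among the outside assembly factors, electron carriers, cycle enzymes, membrane organisers, regulators and muscle markers) were chosen after their values were seen. Alternatives covered scaling, filter, pseudocount, variance model, probe set choice, replicate block, covariates and arrays left out.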

Additional observations from a re-analysis of the deposited data

Results flagged for a closer look

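The tunicamycin responses of lsPERK and WT liver differed by the interaction test in 38 respiratory genes (limma, adjusted p under 0.05, difference of responses on the log2 scale, lsPERK minus WT). In complex I they were Ndufa10 (0.35), Ndufa13 (0.60), Ndufa3 (0.49), Ndufa5 (0.53), Ndufa6 (0.61), Ndufa8 (0.47), Ndufa9 (0.34), Ndufb10 (0.41), Ndufb2 (0.59), Ndufb3 (0.94), Ndufb5 (0.45), Ndufb7 (0.56), Ndufc1 (0.49), Ndufs1 (0.48), Ndufs3 (0.28), Ndufs4 (0.65), Ndufs5 (0.60) and Ndufs7 (0.61), with the assembly factors Ndufaf5 (0.86) and Ndufaf8 (0.43). In complexes II and III they were Sdhc (0.49), Sdhd (0.72), Uqcr10 (0.37), Uqcr11 (0.49) and Uqcrh (0.58). In complex IV they were Cox5b (0.33), Cox6b1 (0.33), Cox8a (0.38), Ndufa4 (0.53) and, with the opposite sign, Cox7a2l (-0.73). In complex V they were Atp5e (0.44), Atp5j (0.41), Atp5j2 (0.34), Atp5k (0.66), Atp5l (0.30), Atp5md (0.80), Atp5mpl (0.55) and Atp5o (0.41).

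One array lay far from the other 3 of its group in 9 of 174 groups of 4 arrays, by Dixon's test at its 95% critical value, which chance passes in about 1 of 20 groups. In lsPERK tunicamycin liver these were Atp5md (12.67, low) and Sdhb (12.96, low) on replicate 2, Cox7a2 (13.93, high) on replicate 3, and Cox7a1 (6.50, high) and Ndufa4l2 (3.36, low) on replicate 4. In WT tunicamycin liver they were Atp5k (11.87, low), Ndufaf2 (8.46, high) and Uqcr10 (11.88, low) on replicate 2 and Ndufb1 (7.83, high) on replicate 3.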

How the results depend on the processing

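Scaling between arrays moved the counts most. On the deposited scale 8 respiratory genes were called for WT, 0 for lsPERK and 17 between lsPERK and WT under tunicamycin. In the difference of responses 2 were called. The counts after quantile normalization were 62, 3, 57 and 38. Of all genes, 35.6%, 5.71%, 21.9% and 15.6% were called on the deposited scale, against 46.7%, 15.7%, 35.3% and 19.9% after quantile normalization. Median centring gave 0 for the lsPERK response, 26 under tunicamycin and 16 in the difference of responses. A variance model without a trend gave 23 in the last. Of all genes, median centring gave 12.5%, 30.4% and 15.3%, and the model without a trend 18.1%. Beside the count of 0 for the lsPERK response, 3 genes had an unadjusted p under 0.05 in limma under each of both scalings. Median log2 differences on the deposited scale were -0.066 (WT), 0.20 (under tunicamycin), 0.14 (controls) and 0.048 (difference of responses). Median centring gave 0.11 (lsPERK), -0.19 (controls) and 0.46 (difference of responses), and centring on the 3022 brightest genes -0.48 (WT), -0.12 (controls) and 0.45 (difference of responses). With single arrays left out, calls ran from 52 to 64 (WT), 2 to 4 (lsPERK), 46 to 58 (under tunicamycin), 0 to 0 (controls) and 20 to 38 (difference of responses), the last lowest at 20 without lsPERK control replicate 2 and at 25 without WT control replicate 2. The medians ran from -0.37 to -0.28, -0.06 to 0.00, 0.25 to 0.33, -0.07 to -0.01 and 0.29 to 0.36. With the probe set of largest variance the WT value turned for Atp5g2 (0.050), Atp5j2 (0.058) and Sdha (0.12), the tunicamycin value for Atp5j2 (-0.56), and the difference of responses for Atp5j2 (-0.39), Cox5b (-0.29) and Ndufa3 (-0.046). It also turned for Ndufaf8 on the deposited scale (-0.078). None of these 8 values was called, and the cause was not tested. Same-numbered arrays of different groups had a median correlation of 0.24 (from -0.37 to 0.42, over 0.1 in 13 of 19 pairs), against -0.17 for different numbers (over 0.1 in 23 of 54). Same-numbered arrays were thus more alike on the median. The labels do not say what a number shares, so the main fit did not take the numbers as pairs. With the replicate block, 59, 2, 54, 0 and 30 genes were called, against 62, 3, 57, 0 and 38 without it. The shares of all genes with the block were 45.3%, 13.8%, 35.2%, 0% and 18.6%.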
